A study of Homo sapiens with 12 samples.

Results

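Transcripts were compared between lung adenocarcinoma cells kept without attachment for 7 days and the same cells growing attached. The comparison takes 8 of the series' 12 libraries, the 4 labelled as detached for 7 days and the 4 labelled as attached controls, and it describes the 17395 of 60715 listed genes that had enough counts to be tested. The established cell lines are HCC4006, which has an EGFR deletion, NCI-H2228, which has a fusion of ALK, LC-2/ad, which has a fusion of RET, and NCI-H2009. All derive from human lung adenocarcinoma, a cancer of glandular airway and alveolar epithelium.

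All cells grew in RPMI-1640 with fetal bovine serum, penicillin and streptomycin. For the detached state they were lifted with trypsin and kept on ultra-low attachment plates, a coated plastic to which cells do not stick. The attached libraries are labelled as untreated and carry no time. Loss of attachment therefore cannot be told apart from trypsin, replating or time in culture. Each line gave 1 library per state, so the 4 lines are the replicates and no line has an error of its own. The p-values measure only the spread between these 4 lines, as estimated from all 12 libraries, the 4 detached for 1 day included. The 8 libraries held 33307900 to 38357500 estimated counts, and 13516 to 14899 genes reached 1 TPM (a level per length of transcript, scaled to the same total in each library).

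Epithelial cells normally read their footing on the matrix through integrins, focal adhesions and the actin cytoskeleton. These feed the transcriptional coactivators YAP and TAZ, which act through TEAD factors on matrix and growth genes, and they help to hold caveolae, the flask-shaped pits of the cell membrane built from caveolins and cavins. Most epithelial cells that lose this footing stop dividing or die, a death called anoikis, while many carcinoma cells survive as floating clusters. Passage through mitosis is marked by a wave of transcripts controlled by the DREAM and MuvB complexes, which bind a short promoter element called CHR.

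The labelled cell type was checked first. The summed level of 14 pan-epithelial markers (keratins, EPCAM, E-cadherin and others) ran from 5626 to 18575 TPM in the attached libraries and from 4217 to 22952 TPM at day 7. Of 13 leukocyte markers 7 had enough counts to be tested, and the sum over all 13 ran from 18.1 to 40.2 TPM attached and from 19.6 to 120 TPM at day 7. The defining leukocyte gene PTPRC averaged 0.0615 and 0.268 TPM, and CD3E, MS4A1 and TYROBP were listed at 0 in both states. The list members CD79A and CD14 averaged more at day 7 than attached, with values given under other observations. Of 11 fibroblast markers 4 were tested, with sums over all 11 of 7.48 to 379 TPM attached and 5.83 to 46.0 TPM at day 7. Of 9 endothelial markers 4 were tested, with sums over all 9 of 2.82 to 6.32 TPM attached and 3.91 to 14.4 TPM at day 7. The share of TPM from mitochondrially encoded genes was 1.03%, 1.56%, 0.53% and 1.49% attached and 0.97%, 2.02%, 1.41% and 2.68% at day 7. Here and in every series of 4 values below, the order is NCI-H2009 first, then LC-2/ad, then NCI-H2228, then HCC4006. In RNA from whole cultures, a change in the mix of cells, such as fewer dividing cells, cannot be told apart from a change in the RNA of each cell.

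Across the transcriptome the lines moved by different amounts. On the scale of log2 CPM (counts scaled by library size, with a prior count of 2), NCI-H2009 had 3194 genes at least 2-fold higher and 2366 at least 2-fold lower at day 7. The corresponding counts were 1772 and 1387 in LC-2/ad, 1506 and 1760 in NCI-H2228, and 1658 and 1520 in HCC4006. NCI-H2009 thus had the widest response, with an SD of its changes over genes of 1.3 against 0.92 to 0.95 in the others. Across genes, the changes of any 2 lines correlated weakly. Pearson's r was highest between NCI-H2009 and LC-2/ad, at 0.38 (Spearman's rho 0.45), and lowest between LC-2/ad and NCI-H2228, at 0.14 (rho 0.17). These are descriptions over 17395 genes, which are not independent, and each line's change rests on 1 library per state.

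**Figure D1:**
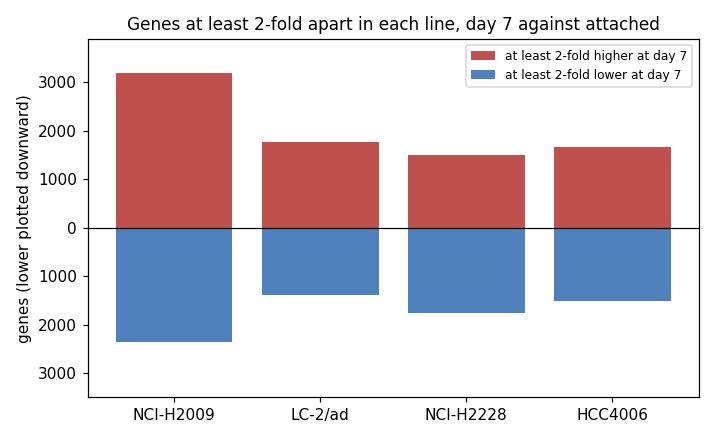
Number of tested genes at least 2-fold higher (red, upward) or lower (blue, downward) at day 7 than attached in each cell line, on the log2 CPM scale. NCI-H2009 has 3194 genes higher and 2366 lower, more than each of the other lines.

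What the 4 lines shared was a smaller set. Of the genes tested, 2497 (14.4%) were higher and 2370 (13.6%) lower in all 4 lines. At least 2-fold in all 4 lines, 88 genes (0.506%) were higher and 86 (0.494%) lower. Of these, 38 and 60 had a mean of at least 5 TPM in the state where they were higher. The genes higher in the 4 lines were mostly of low level: with genes split by TPM into 4 bins of equal size, 41 of the 88 lay in the lowest bin and 8 in the highest, against 17 and 27 of the 86 lower genes. The 88 higher genes had their largest change in NCI-H2009 in 57 cases, and their smallest in NCI-H2228 in 32. The 86 lower genes had their largest change in NCI-H2009 in 34 cases and in NCI-H2228 in 34, and their smallest in LC-2/ad in 43. TPM of the 2 states did not overlap for 21 of the higher and 33 of the lower genes. Over all genes tested, TPM did not overlap for 1.09% (higher) and 1.36% (lower).

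edgeR's quasi-likelihood test with the cell line as a block called 18 genes at an adjusted p (Benjamini-Hochberg) under 0.05, which is 0.103% of those tested. PDK4 rose (0.00575% of genes called higher) and 17 genes fell (0.0977%). All 18 are protein-coding, had the same sign of log2 CPM change in the 4 lines, and have adjusted p between 0.0448 and 0.0474, close to the threshold. Without adjustment, 1474 genes (8.47%) were higher and 1251 (7.19%) lower at p under 0.05. The calls depended on the model. A fit to the 8 libraries alone, without the spread of the remaining 4, called PDK4 only, and a fit without the cell line called 0 genes with 518 at an unadjusted p under 0.05. DESeq2's Wald test called 600 genes higher (3.45%) and 562 lower (3.23%), among them all 18, and limma-trend called 35, again with all 18. With the use of strand unknown, levels are uncertain for called genes that overlap a tested gene on the opposite strand, such as LAMB1 (DLD), COL4A2 (COL4A1), IGFBP7 (POLR2B), CCNA2 (EXOSC9), PROCR (MMP24OS) and THBS1 (FSIP1). The same holds for genes below that were not called, such as NAPSA (NR1H2), CHI3L2 (DENND2D), CLDN7 (ELP5), CD74 (TCOF1) and ETV4 (DHX8). Leaving out a line, or 1 of its libraries, gave 0 to 8 calls, of which at most 2 were among the 18. From here on, called and passed, and every adjusted p with no tool named, refer to edgeR's fit.

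**Figure D2:**
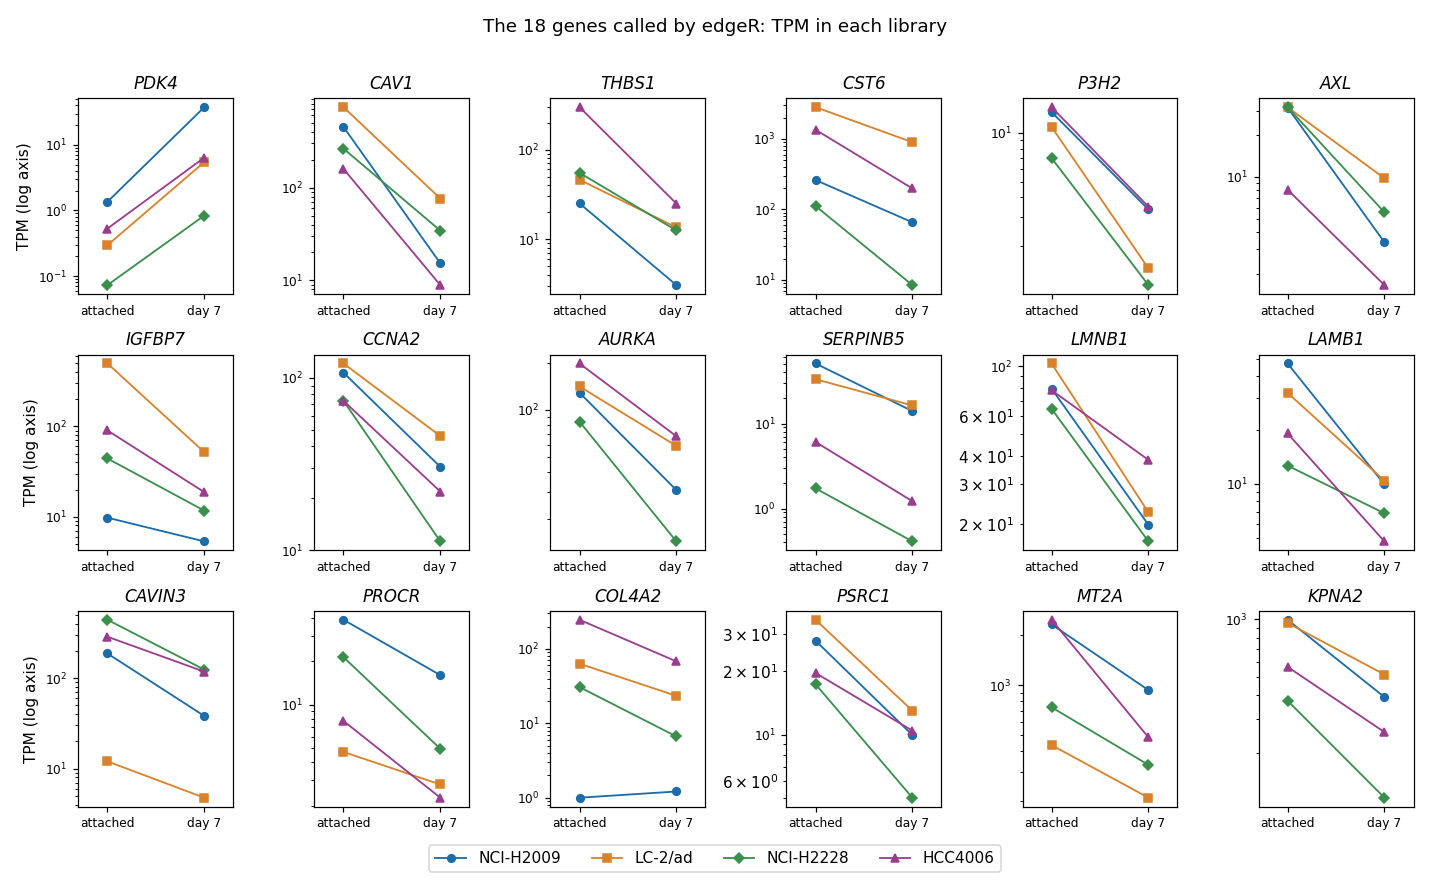
TPM (log axis) of the 18 genes called by edgeR in the attached and day 7 library of each cell line, 1 panel per gene, lines joining the libraries of a cell line. PDK4 is higher at day 7 in each line, the other 17 genes have lower log2 CPM in each line, and COL4A2 in NCI-H2009 is at about 1 TPM in both states.

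The gene that rose encodes pyruvate dehydrogenase kinase 4, which phosphorylates and shuts the pyruvate dehydrogenase complex and so holds pyruvate back from the citric acid cycle. PDK4 stood at 1.36, 0.296, 0.073 and 0.531 TPM in the attached libraries and at 37.5, 5.47, 0.838 and 6.39 TPM at day 7. Each line had more, by 3.17 to 4.51 on the log2 scale, yet NCI-H2228 at day 7 remained below attached NCI-H2009, so the states overlap. The fitted log2 change was 4.0 ± 0.445 (SE, 4 lines), or 16-fold, with an adjusted p of 0.0448. PDK2, a second kinase of the complex, stood at 33.1, 58.1, 24.7 and 26.8 TPM attached and 167, 116, 40.4 and 41.8 TPM at day 7, a log2 change of 1.09 that did not pass edgeR's test (adjusted p 0.155) but passed DESeq2's (0.0171). Of 14 genes of the complex and its regulators, PDK4 was the 1 called by edgeR, with 2 by DESeq2, and the list's median log2 change was 0.08 against 0.03 for all genes.

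PDK4 is also a target of the fatty acid sensors of the PPAR family and of FOXO factors. Of 17 tested genes of PPAR targets and fatty acid oxidation, 5 were higher and 0 lower in the 4 lines, and the median was 0.80. Its line medians were 1.12, 1.07, 0.23 and 0.22. Lipid droplet coat protein PLIN2 stood at 100, 2.13, 126 and 65.2 TPM attached and at 297, 9.64, 302 and 49.4 TPM at day 7, higher in 3 lines and lower in HCC4006 (log2 change 1.12, adjusted p 0.202). Among 17 tested FOXO targets, 4 were higher and 0 lower in the 4 lines, with a median of 0.21. PDK4 is on both lists and is counted among the higher genes of each. Over all genes, 14.4% were higher and 13.6% lower in the 4 lines. The insulin receptor gene INSR, 1 of the FOXO targets, went from 0.486, 0.263, 0.622 and 0.684 TPM to 3.98, 0.973, 1.83 and 5.08 TPM, with no overlap between states (log2 change 1.97, adjusted p 0.0794). DEPP1 and KLHL24, picked here after their values were seen, averaged 8.10 and 9.52 TPM attached and 44.9 and 42.2 TPM at day 7, also without overlap, and did not pass (adjusted p 0.173 and 0.147).

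Among the called genes the largest fall was that of a caveolae gene. CAV1, the main caveolin, stood at 452, 737, 263 and 159 TPM attached and at 15.3, 76.3, 34.4 and 8.90 TPM at day 7. The lowest attached library was above the highest detached one, and the log2 change was -3.74 ± 0.482 (adjusted p 0.0448), a 13.4-fold lower level. CAVIN3, a cavin that coats caveolae, went from 187, 12, 440 and 286 TPM to 38.2, 4.79, 124 and 118 TPM. Its fall was 1.68 ± 0.247 on the log2 scale (adjusted p 0.0474), and the states overlap because LC-2/ad had little in either. CAVIN1, the cavin that caveolae need, went from 134, 71.5, 137 and 72.9 TPM to 17.9, 26.3, 58.8 and 19.4 TPM without overlap, yet did not pass (log2 change -1.93, adjusted p 0.0794). CAV2, the partner of CAV1, averaged 128 TPM attached and 46.4 TPM at day 7 (log2 change -1.50, adjusted p 0.0991). The other 4 of the 8 caveolae genes tested, CAVIN2, EHD2, PACSIN2 and PACSIN3, had log2 changes between -0.46 and 0.24. The list's median was -0.98, with 2 of 8 called lower and 0 called higher by edgeR, and 4 lower by DESeq2.

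A second group of falls encodes proteins of the matrix or acting on it. THBS1, the secreted matrix glycoprotein thrombospondin 1, stood at 25.1, 46.1, 55.1 and 297 TPM attached and at 3.08, 13.6, 12.5 and 25.0 TPM at day 7. Its log2 change was -2.74 ± 0.370 (adjusted p 0.0473), and the states barely failed to overlap, with HCC4006 at day 7 just under attached NCI-H2009. LAMB1, a laminin chain of basement membranes, went from 47.1, 32.2, 12.6 and 19.1 TPM to 9.92, 10.4, 6.85 and 4.77 TPM, also without overlap (log2 change -1.79 ± 0.254, adjusted p 0.0473). COL4A2, a chain of basement membrane collagen, went from 1.00, 63.3, 30.7 and 247 TPM to 1.21, 23.4, 6.66 and 68.0 TPM. NCI-H2009 hardly had the transcript, and there TPM was higher while log2 CPM was lower by 0.73, the 1 case among the 18 genes where the units differ in sign. P3H2, which hydroxylates prolines of that collagen, went from 13.5, 10.9, 6.99 and 14.4 TPM to 3.35, 1.45, 1.14 and 3.49 TPM, a fall of 2.59 on the log2 scale and of similar size in every line. Of 19 extracellular matrix genes tested, edgeR called 3 lower and 0 higher and DESeq2 5 lower and 1 higher, with a median of -0.73. The list does not move as one: FN1, fibronectin, had a log2 change of 0.95 and was higher in the 4 lines (adjusted p 0.134 by edgeR, 0.00603 by DESeq2).

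The genes for 1 cystatin, 1 serpin and 1 binding protein were also called lower, while their families did not move as one. Among 7 cystatins 2 were higher and 1 lower in the 4 lines. Their fitted median of 1.81 lay above the median of each line (0.52, 1.00, -0.15 and 1.15). Among 14 plasminogen activators and serpins 1 was higher and 2 lower (median 0.07), and among 10 IGF binding proteins 1 and 1 (median 0.18). CST6, a secreted inhibitor of cysteine proteases, stood at 261, 2814, 112 and 1347 TPM attached and at 65.7, 897, 8.46 and 198 TPM at day 7. The lines differ more from each other than the states do, but each line had less, and the fall was 2.61 ± 0.321 on the log2 scale. Another cystatin went the other way: CST4 was at 0, 1.60, 1.94 and 406 TPM attached and at 0.082, 7.45, 2.53 and 14301 TPM at day 7, so that nearly all of its level was in detached HCC4006 (adjusted p 0.212). SERPINB5, the serpin called maspin, went from 51.0, 33.3, 1.73 and 6.08 TPM to 14, 16.3, 0.410 and 1.22 TPM (log2 change -1.81 ± 0.233, adjusted p 0.0448). IGFBP7, a secreted binding protein of insulin-like growth factors, went from 9.75, 499, 44.2 and 90.3 TPM to 5.32, 51.8, 11.7 and 18.7 TPM, with the largest difference in LC-2/ad (log2 change -2.11 ± 0.299, adjusted p 0.0473).

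Surface receptors are represented by AXL and PROCR. AXL, a receptor tyrosine kinase that binds the ligand GAS6, stood at 31.7, 31.8, 31.9 and 8.08 TPM attached and at 3.37, 9.78, 5.55 and 1.66 TPM at day 7. Attached levels were nearly equal in 3 lines and lower in HCC4006, and the fall was 2.44 ± 0.331 on the log2 scale (adjusted p 0.0473). GAS6 itself averaged 55.5 TPM attached and 10.4 TPM at day 7, most of it in HCC4006 (log2 change -1.97, adjusted p 0.111). PROCR, the endothelial protein C receptor, went from 38.6, 4.71, 21.3 and 7.70 TPM to 16, 2.80, 4.95 and 2.27 TPM (log2 change -1.66 ± 0.238, adjusted p 0.0473). Among 22 receptor tyrosine kinases and ligands tested, AXL was the 1 called by edgeR, and DESeq2 called 3 lower and 1 higher. NRG1, a ligand of ERBB receptors, had a log2 change of -2.09 (3.17 and 0.922 TPM, adjusted p 0.0794), and its receptor ERBB3 one of 1.39 (19.2 and 45.3 TPM, adjusted p 0.134).

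MT2A, a metallothionein that binds zinc and copper, was the most abundant gene called. It stood at 2313, 436, 735 and 2466 TPM attached and at 933, 211, 332 and 485 TPM at day 7, lower in each line with overlapping states (log2 change -1.50 ± 0.211, adjusted p 0.0473). The other 6 metallothionein genes tested were looked up after this was seen and did not pass edgeR's test. MT1A and MT1L, which passed DESeq2's (adjusted p 0.00522 and 0.0177), had log2 changes of -1.83 and -1.67, MT1G one of 0.87, and the rest lay between -0.07 and 0.26. These genes are near-identical copies, and how reads were shared among them is not known here.

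The remaining 5 calls are genes of dividing cells. CCNA2, cyclin A2, stood at 107, 121, 73.5 and 73.5 TPM attached and at 30.4, 45.9, 11.2 and 21.9 TPM at day 7 (log2 change -2.02 ± 0.260, adjusted p 0.0448). AURKA, a kinase of the spindle poles, went from 129, 141, 84.2 and 198 TPM to 30.8, 58.9, 14.5 and 67.9 TPM (log2 change -1.88 ± 0.274). PSRC1, a microtubule protein of the spindle, went from 27.9, 35.0, 17.3 and 19.6 TPM to 9.95, 13, 5.02 and 10.4 TPM. For these 3 genes the states do not overlap, and the lowest level was in detached NCI-H2228.

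LMNB1, the lamin B1 of the nuclear lamina, went from 79.5, 103, 64.8 and 78.3 TPM to 19.9, 22.6, 16.8 and 38.5 TPM, with the smallest difference in HCC4006 (log2 change -1.80 ± 0.259). LMNB2 and TMPO, 2 more lamina genes, had log2 changes of -1.03 and -0.82 (adjusted p 0.106 and 0.120). KPNA2, an importin that carries proteins into the nucleus, went from 995, 957, 374 and 563 TPM to 391, 514, 116 and 256 TPM. Its fall of 1.29 ± 0.192 on the log2 scale was the smallest of the 18, and its states overlap because attached NCI-H2228 stood below the detached libraries of NCI-H2009 and LC-2/ad.

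Promoters are shown for cell cycle genes because the mitotic genes moved together in every line. RefSeq promoters (250 bases before the start, GRCh38.p14) were matched for 11938 of the 17395 genes tested, taking the start nearest to the 5′ end of the deposited gene. They were searched on both strands for CHR (TTTGAA or TTTAAA) and for CCAAT, the binding element of the factor NF-Y. A match is a description of letters, not of binding. The 2 called genes CCNA2 (chr4:121823884-121824133 on the minus strand) and KPNA2 (chr17:68035485-68035734 on the plus strand) are set beside CCNB1, cyclin B1 (chr5:69166900-69167149 on the plus strand), and the spindle checkpoint kinase gene BUB1B (chr15:40160819-40161068 on the plus strand). Each is written 5′ to 3′ along its gene, with matches to either motif in capitals.
CCNA2: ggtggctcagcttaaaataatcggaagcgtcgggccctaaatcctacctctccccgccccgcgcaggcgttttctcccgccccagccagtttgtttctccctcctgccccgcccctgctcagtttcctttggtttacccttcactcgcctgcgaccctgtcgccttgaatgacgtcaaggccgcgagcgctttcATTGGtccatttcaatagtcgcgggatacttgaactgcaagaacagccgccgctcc
KPNA2: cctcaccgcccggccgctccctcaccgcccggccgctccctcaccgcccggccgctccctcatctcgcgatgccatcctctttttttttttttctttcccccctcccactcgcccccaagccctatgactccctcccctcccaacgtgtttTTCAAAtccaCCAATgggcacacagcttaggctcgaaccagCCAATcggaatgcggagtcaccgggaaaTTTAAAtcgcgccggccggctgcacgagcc
CCNB1: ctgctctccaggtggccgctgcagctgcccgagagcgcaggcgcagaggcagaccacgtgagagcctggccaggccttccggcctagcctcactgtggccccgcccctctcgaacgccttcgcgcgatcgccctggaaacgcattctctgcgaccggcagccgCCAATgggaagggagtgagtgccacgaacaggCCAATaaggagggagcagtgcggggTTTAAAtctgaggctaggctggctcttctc
BUB1B: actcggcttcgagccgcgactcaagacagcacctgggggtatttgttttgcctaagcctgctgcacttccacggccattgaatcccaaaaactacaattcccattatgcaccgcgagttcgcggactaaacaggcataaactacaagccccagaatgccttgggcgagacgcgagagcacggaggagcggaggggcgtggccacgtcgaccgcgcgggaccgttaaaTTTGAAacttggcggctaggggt
KPNA2 and CCNB1 hold both motifs, CCNA2 a CCAAT and BUB1B a CHR.

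CHR letters stood in 16 of 19 promoters of the list of G2/M and mitosis genes (84.2%) against 1739 of all 11938 (14.6%). CCAAT stood in 16 of those 19 (84.2%) against 34.9% of all. Among genes at least 2-fold lower in the 4 lines, 26 of 65 matched promoters held CHR (40.0%), and among those at least 2-fold higher, 6 of 60 did (10.0%). In the list of DNA replication genes, CHR stood in 2 of 17 promoters and CCAAT in 12 of 17. Median GC content was 61.6% in the G2/M promoters, 68.8% in those of DNA replication and 64.8% in all. 

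All 23 genes of the G2/M list were lower in the 4 lines (13.6% of all genes were), with a median log2 change of -1.66. CCNA2 and AURKA passed edgeR's test, and 21 of the 23 passed DESeq2's. CCNB1 stood at 477, 434, 517 and 308 TPM attached and at 130, 230, 93.1 and 122 TPM at day 7, without overlap (adjusted p 0.104). BUB1B went from 60.3, 37.9, 33.4 and 33.0 TPM to 19.7, 26.9, 8.03 and 10.7 TPM, also without overlap (adjusted p 0.0784), and it overlaps PAK6 on the same strand. The size differed between lines, with list medians of -2.02, -0.97, -2.59 and -1.08. NCI-H2228 and NCI-H2009 had the larger differences, and LC-2/ad and HCC4006 differences of about 2-fold.

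Of 20 genes of DNA replication and the G1/S transition, 17 were lower in the 4 lines, with a median of -0.77 and 0 calls (14 at an unadjusted p under 0.05, and 9 by DESeq2). GINS1, a subunit of the replicative helicase, averaged 20.2 TPM attached and 9.92 TPM at day 7 (log2 change -1.24, adjusted p 0.0784). RRM1, a subunit of ribonucleotide reductase, went from 131, 145, 141 and 115 TPM to 100, 104, 48.9 and 64.4 TPM, without overlap (adjusted p 0.111). Of 12 D cyclins and CDK inhibitors, 1 was higher and 2 lower in the 4 lines, with a median of -0.23. Of 18 p53 targets 6 were higher and 1 lower, with a median of 0.25. In the deposited pathway annotation, DNA replication had the lowest median of 290 pathways with at least 20 tested genes, at -0.54, with 25 of its 35 genes lower in the 4 lines. Mismatch repair followed at -0.40, then Ribosome at -0.36. These medians are descriptions and were not tested.

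Of 24 targets of YAP and TAZ, 15 were lower and 0 higher in the 4 lines, with a median of -1.08 and line medians of -1.52, -0.67, -1.23 and -0.69. ANKRD1, a muscle and stress protein often used as a YAP readout, stood at 0.071, 0.915, 6.82 and 6.94 TPM attached and at 0, 0.117, 0.148 and 0.731 TPM at day 7 (adjusted p 0.0794). AJUBA, a LIM protein of cell junctions, went from 21.9, 24.2, 68.1 and 21.9 TPM to 6.53, 14.1, 21.5 and 11.5 TPM without overlap (log2 change -1.40, adjusted p 0.107). CCN2, connective tissue growth factor, went from 2.18, 4.20, 9.61 and 63.7 TPM to 0.373, 7.59, 4.05 and 9.60 TPM. It was thus lower in 3 lines and higher in LC-2/ad (adjusted p 0.375).

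Promoters of this group are shown with matches to GGAATG, the core letters that TEAD factors bind, in capitals, on either strand. They are THBS1, which is on the list and was called (chr15:39580829-39581078 on the plus strand), ANKRD1 (chr10:90921088-90921337 on the minus strand) and CCN2 (chr6:131951373-131951622 on the minus strand), all from RefSeq, GRCh38.p14.
THBS1: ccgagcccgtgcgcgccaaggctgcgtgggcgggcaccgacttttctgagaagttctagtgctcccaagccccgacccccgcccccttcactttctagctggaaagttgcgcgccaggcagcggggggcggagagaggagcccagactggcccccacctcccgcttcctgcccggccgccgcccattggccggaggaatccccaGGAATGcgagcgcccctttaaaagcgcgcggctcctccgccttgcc
ANKRD1: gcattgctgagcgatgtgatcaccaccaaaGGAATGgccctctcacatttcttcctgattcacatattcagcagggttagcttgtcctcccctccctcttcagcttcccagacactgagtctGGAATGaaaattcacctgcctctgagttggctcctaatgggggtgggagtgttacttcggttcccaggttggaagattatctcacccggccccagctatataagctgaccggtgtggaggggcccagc
CCN2: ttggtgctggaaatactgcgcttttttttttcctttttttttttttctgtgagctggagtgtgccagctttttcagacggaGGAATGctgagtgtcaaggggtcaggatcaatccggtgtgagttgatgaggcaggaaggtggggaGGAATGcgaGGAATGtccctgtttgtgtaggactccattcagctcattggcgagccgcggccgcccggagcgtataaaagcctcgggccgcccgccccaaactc
The letters stood in 6 of 17 matched promoters of the list (35.3%) against 9.65% of all 11938, and in 8 of the 65 promoters of genes at least 2-fold lower in the 4 lines (12.3%) and 10 of the 60 of genes at least 2-fold higher (16.7%). CCN2, with 3 matches, was not lower in every line.

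Genes that tie cells to the matrix and to actin had small differences. Of 16 focal adhesion scaffolds 8 were lower and 1 higher in the 4 lines (median -0.32), and PXN, paxillin, went from 194, 121, 133 and 118 TPM to 112, 95.1, 69.4 and 57.0 TPM (adjusted p 0.128). The actin crosslinker ACTN4 had a log2 change of -0.67 (adjusted p 0.128). Of 17 actin and SRF targets tested 10 were lower (median -0.55). Among 12 integrins 2 were lower in the 4 lines (median -0.27). TNS4, a member of the tensin family, averaged 12.6 TPM attached and 3.80 TPM at day 7 (log2 change -1.61, adjusted p 0.104). No gene of the scaffold, actin and integrin lists was called by edgeR, while 3, 4 and 0 were called lower by DESeq2.

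The lists of cell junctions differed in the direction of their fitted median. Of 16 genes of desmosomes and hemidesmosomes, 4 were lower and 0 higher in the 4 lines, with a median of -0.30, 0 calls by edgeR and 3 lower by DESeq2. Medians of this list by line were -0.24, 0.13, -0.64 and -0.42. Its summed level was higher at day 7 in NCI-H2009 (1398 and 1747 TPM) and LC-2/ad (1323 and 1511 TPM) and lower in the other lines. Of 17 genes of tight and adherens junctions, 6 were higher and 0 lower in the 4 lines, with a median of 0.45 and 0 calls (4 higher by DESeq2, 5 at an unadjusted p under 0.05). The line medians were 1.11, 0.62, 0.08 and 0.21. CLDN3, a claudin of tight junctions, stood at 10.8, 199, 8.28 and 69.2 TPM attached and at 691, 746, 18.6 and 225 TPM at day 7, with the largest difference in NCI-H2009 (adjusted p 0.149). OCLN, occludin, went from 8.13, 34.5, 49.6 and 35.7 TPM to 66.9, 60.3, 64.0 and 69.1 TPM. Its 4 detached libraries lay close together and above every attached one (log2 change 1.16, adjusted p 0.178). CLDN4 and CLDN7 had log2 changes of 1.03 and 0.84 (adjusted p 0.163 and 0.187). ELF3, an epithelial transcription factor, went from 67.5, 401, 62.6 and 211 TPM to 964, 845, 173 and 393 TPM (adjusted p 0.168). CLDN11, a claudin best known from myelin, was lower instead, with a log2 change of -2.75 and most of its level in attached NCI-H2228 (adjusted p 0.0644).

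Of 13 mesenchymal markers 3 were lower and 1 higher in the 4 lines, with a median of -0.72, while their summed level was higher at day 7 in NCI-H2009 (301 and 386 TPM) and LC-2/ad (1049 and 1592 TPM). Of 13 TGF-beta and BMP targets 8 were lower and 0 higher in the 4 lines, with a median of -0.89. TGFBI, a secreted matrix protein named for its induction by TGF-beta, stood at 1113, 347, 633 and 966 TPM attached and at 219, 148, 131 and 287 TPM at day 7. The states do not overlap, and it lay just outside the threshold (log2 change -1.90, adjusted p 0.0544). The ligand TGFB2 went from 11, 20.5, 43.8 and 37.1 TPM to 0.374, 7.93, 12.2 and 11.3 TPM (adjusted p 0.111). ID1, a BMP target, averaged 601 TPM attached and 286 TPM at day 7 without overlap (adjusted p 0.104). CDH2, N-cadherin, averaged 7.97 and 1.48 TPM (log2 change -2.41, adjusted p 0.0915), and LOXL2, which crosslinks collagen, 86.8 and 29.3 TPM (adjusted p 0.132). LGALS1, galectin-1, picked after its values were seen, averaged 2686 TPM attached and 466 TPM at day 7 (log2 change -2.28, adjusted p 0.136). ITGBL1, an integrin-like secreted protein, and PPP1R14A, an inhibitor of myosin phosphatase, were at least 2-fold lower in the 4 lines with adjusted p of 0.0794 and 0.151. PPP1R14A lies opposite the far more abundant SPINT2 and is uncertain with strand unknown. FAM72D and UGT1A6 were lower too, but these have near-identical copies or shared exons, so their own levels are uncertain.

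Higher at day 7 in the 4 lines, but not past edgeR's threshold, were 20 protein-coding genes that the naming rule takes beside PDK4. Their adjusted p ran from 0.0538 to 0.327. DESeq2 called 19 of the 20 and limma 6. For 17 of them the largest change was in NCI-H2009. TPM did not overlap between states for 5: GAA, CHI3L2, PARM1, CEACAM5 and LCN2.

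**Figure D3:**
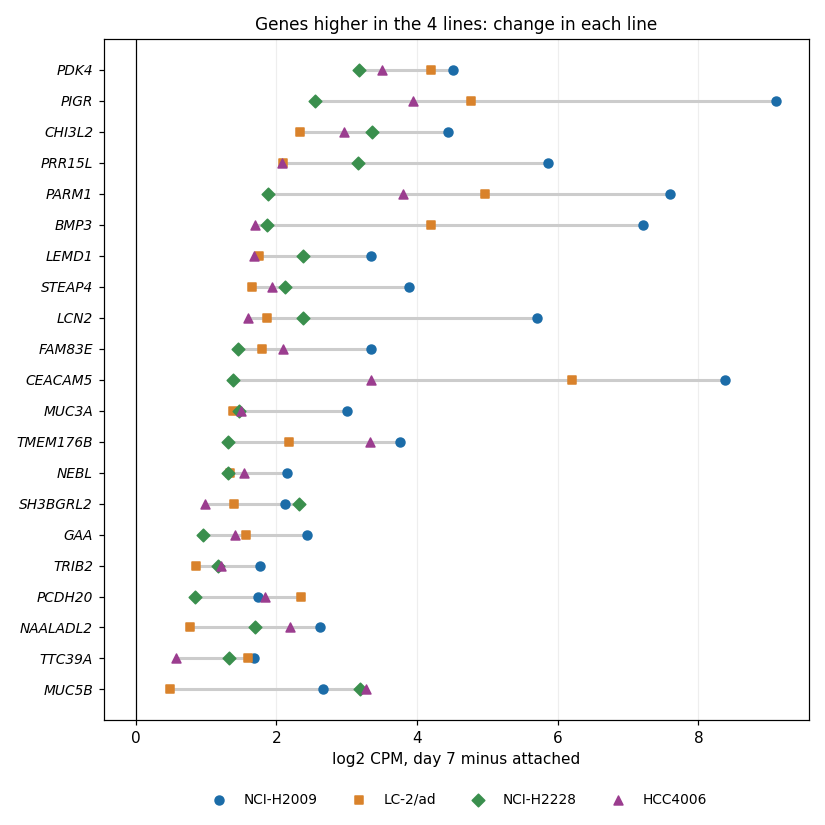
Change of log2 CPM (day 7 minus attached) in each cell line for PDK4 and the 20 other protein-coding genes named for being higher in the 4 lines, ordered by their smallest change. NCI-H2009 (blue circles) has the largest change in 18 of the 21 genes, and PIGR ranges from 2.55 in NCI-H2228 to 9.11 in NCI-H2009.

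Several of these genes encode products of mucosal glands. LCN2, a secreted iron-siderophore binder, stood at 31.4, 400, 325 and 175 TPM attached and at 1972, 1513, 1620 and 492 TPM at day 7 (log2 change 2.73, adjusted p 0.128). CEACAM5, a surface glycoprotein known as a tumor marker, went from 3.52, 2.41, 20.1 and 30.4 TPM to 1684, 192, 49.9 and 290 TPM (log2 change 5.01, adjusted p 0.110). PIGR, which carries IgA across epithelium, went from 0.008, 1.89, 1.59 and 83.2 TPM to 16.8, 53.6, 9.34 and 1210 TPM (log2 change 5.13, adjusted p 0.107). The mucin MUC5B averaged 0.881 and 7.43 TPM and nearly all of it was in NCI-H2228 and HCC4006. CHI3L2 and CHI3L1, chitinase-like proteins, had log2 changes of 4.13 and 4.15, the first from no more than 0.352 TPM attached and the other added after its values were seen. Of 12 secretory airway genes tested 7 were higher and 0 lower in the 4 lines, with a median of 1.81. Of 12 alveolar type 2 genes 4 were higher and 0 lower, with a median of 1.61 and a line median of -0.26 in NCI-H2228. SFTPA2, 1 of these 4, was at 0.018 TPM in both states in NCI-H2228. SFTPC of the same list was not tested, with 0 TPM in the attached libraries and at most 0.245 TPM at day 7. Of 12 markers of ciliated cells 4 were higher and 1 lower, with a median of 1.54, while their summed level was lower at day 7 in each line (788 to 1720 TPM attached, 577 to 1063 TPM at day 7). NAPSA, the aspartic protease napsin A, went from 2.08, 1.90, 62.7 and 82.9 TPM to 18, 26.1, 94.4 and 705 TPM (adjusted p 0.0915).

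The others have various roles. PARM1, a mucin-like membrane protein, stood at 0.051, 0.705, 1.63 and 0.142 TPM attached and at 15.6, 23.1, 6.0 and 2.03 TPM at day 7 (log2 change 4.91, adjusted p 0.0794). TMEM176B averaged 4.70 and 21 TPM and lay nearest to the threshold, with an adjusted p of 0.0538. Its neighbour TMEM176A, which overlaps it on the opposite strand and was added after its values were seen, averaged 4.89 and 20.1 TPM, and reads of the 2 may not be told apart. STEAP4, a metalloreductase, had a log2 change of 2.42 (adjusted p 0.0555), and the adhesion protein PCDH20 one of 1.82 (adjusted p 0.0544), with most of its level in HCC4006. NEBL, an actin-binding protein, went from 2.24, 1.77, 8.12 and 4.06 TPM to 13.2, 4.20, 18.9 and 10.2 TPM (adjusted p 0.0636). TRIB2, a pseudokinase, went from 6.37, 8.25, 6.0 and 22.2 TPM to 19.6, 18.2, 12.3 and 52.7 TPM (adjusted p 0.0784). BMP3, a ligand, averaged 0.151 and 6.90 TPM with most of it in NCI-H2009 and LC-2/ad (adjusted p 0.163). NAALADL2, SH3BGRL2, TTC39A, PRR15L, FAM83E, MUC3A and LEMD1 had log2 changes of 1.88, 1.67, 1.29, 3.13, 2.44, 2.04 and 2.35. Most of the MUC3A level was in HCC4006, and in NCI-H2228 MUC3A was higher by log2 CPM but not by TPM, at 0.044 and 0.042.

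Antigen presentation and complement genes were higher in most lines, with no call by edgeR. Of 12 MHC class I and peptide loading genes 7 were higher and 1 lower in the 4 lines (median 0.73, 6 called higher by DESeq2). HLA-B, a class I heavy chain, stood at 909, 983, 1586 and 512 TPM attached and at 8498, 2033, 1929 and 1360 TPM at day 7 (log2 change 1.44, adjusted p 0.151). HLA-C averaged 742 and 1680 TPM, and reads of HLA-B and HLA-C, which are variable and alike, can be shared between them. Of 12 class II genes 7 were higher and 0 lower (median 1.81), with line medians of 2.20, 0.74, 0.23 and 3.61. HLA-DRA went from 0.072, 17.2, 511 and 39.3 TPM to 2.97, 52.1, 448 and 436 TPM, so that NCI-H2228 was high in both states and did not have more at day 7 (adjusted p 0.161). CD74, the invariant chain of class II, went from 46.7, 68.9, 1466 and 789 TPM to 283, 138, 2093 and 5089 TPM (adjusted p 0.134). Class II molecules are also made by leukocytes, whose summed markers moved from 18.1 to 120 TPM in NCI-H2009 and from 40.2 to 120 TPM in HCC4006. PTPRC stayed near 0 as given above, while the leukocyte markers CD79A and CD14 averaged more at day 7. The part of such cells in these values was not tested.

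Of 15 complement genes 6 were higher and 0 lower in the 4 lines, with a median of 0.94. CFB, complement factor B, averaged 57.0 TPM attached and 228 TPM at day 7, with line changes of 6.49, 1.26, 1.43 and 4.14 (log2 change 3.58, adjusted p 0.139), and it overlaps C2 on the same strand. C3 went from 0.105, 22.6, 99.5 and 0.889 TPM to 6.71, 51.6, 236 and 4.76 TPM (adjusted p 0.158), and it overlaps GPR108 on the same strand. C4B, which has a near-identical copy, averaged 12 and 118 TPM. Among 15 NF-kappaB targets 4 were higher and 0 lower in the 4 lines, with line medians of 2.74, 0.98, -0.40 and 0.32. Their median of 0.98 became -0.10 with no replicate block. NFKBIA, the inhibitor of NF-kappaB and its target, went from 87.5, 154, 147 and 137 TPM to 425, 313, 183 and 219 TPM without overlap (adjusted p 0.179). Of 18 interferon-stimulated genes 4 were higher and 1 lower, with a median of 0.15.

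Lysosomal genes were higher by a modest amount. Of 25 genes 14 were higher and 1 lower in the 4 lines (14.4% of all genes were higher), with a median of 0.66, 9 called higher by DESeq2 and line medians of 1.25, 0.62, 0.31 and 0.20. GAA, the acid glucosidase that breaks down glycogen, stood at 30.7, 50.1, 58.8 and 58.8 TPM attached and at 187, 154, 112 and 146 TPM at day 7. The states lie well apart, and the log2 change of 1.59 ± 0.25 had an adjusted p of 0.0555. PSAP, the precursor of the saposins, went from 445, 957, 1209 and 1136 TPM to 3693, 2673, 2413 and 1349 TPM without overlap (adjusted p 0.149). CTSB, cathepsin B, averaged 535 and 1290 TPM, and the peptidase TPP1 41.6 and 99.4 TPM (adjusted p 0.134 and 0.123). RRAGD, a small GTPase of the lysosomal surface, had a log2 change of 1.39 (adjusted p 0.134).

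The promoter of GAA is shown because it holds the CLEAR element, the palindrome TCACGTGA bound by TFEB and its relatives, more than once (RefSeq, GRCh38.p14, chr17:80101331-80101580 on the plus strand, matches in capitals).
GAA: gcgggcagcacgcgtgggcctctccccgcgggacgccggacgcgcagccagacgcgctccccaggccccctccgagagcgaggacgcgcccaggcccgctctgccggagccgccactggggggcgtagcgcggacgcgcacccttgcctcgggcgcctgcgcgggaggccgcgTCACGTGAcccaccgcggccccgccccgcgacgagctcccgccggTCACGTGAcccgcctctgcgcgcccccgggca
This element stood in 5 of 16 matched promoters of the lysosome list (31.2%) and in 186 of all 11938 (1.56%). It stood in 0 of the 60 promoters of genes at least 2-fold higher in the 4 lines. GAA is not among these 60, since its change in NCI-H2228 was 0.95.

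**Figure D4:**
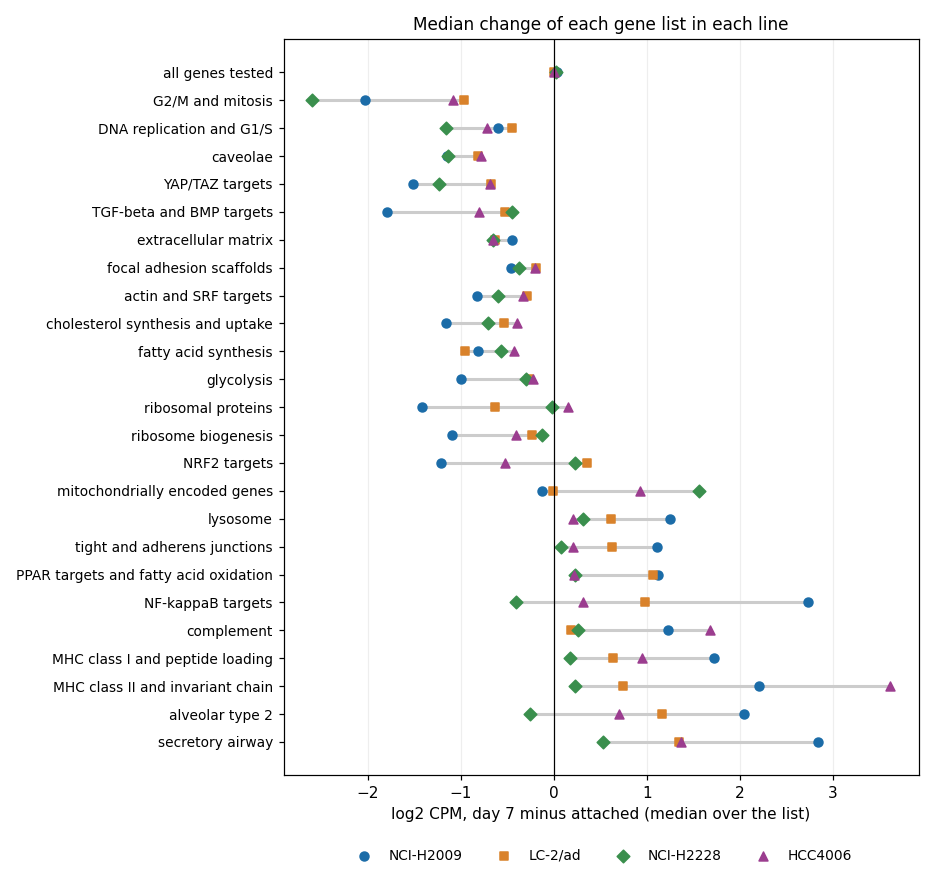
Median change of log2 CPM (day 7 minus attached) over the tested members of 24 gene lists and over all genes, 1 point per cell line. Medians of the G2/M list run from -2.59 to -0.97, while those of the MHC class II list run from 0.23 in NCI-H2228 to 3.61 in HCC4006.

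Biosynthetic genes were lower by small amounts. Of 24 genes of cholesterol synthesis and uptake 17 were lower and 0 higher in the 4 lines (median -0.76). SQLE, squalene epoxidase, stood at 97.6, 161, 24.4 and 32.0 TPM attached and at 32.6, 35.0, 15.8 and 24.4 TPM at day 7 (log2 change -1.32, adjusted p 0.163). Of 11 genes of fatty acid synthesis 8 were lower (median -0.63), and the desaturase SCD went from 101, 74.3, 143 and 120 TPM to 36.8, 9.11, 58.3 and 54.0 TPM without overlap (adjusted p 0.182). FADS2, a further desaturase, had a log2 change of -1.65 and overlaps other genes in the table (adjusted p 0.168). Of 20 glycolysis genes 9 were lower and 1 higher (median -0.44), with NCI-H2009 at -0.99 and the other lines between -0.30 and -0.22. LDHA, lactate dehydrogenase A, went from 2679, 1827, 2429 and 2040 TPM to 693, 1273, 1388 and 1343 TPM without overlap (adjusted p 0.180).

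Ribosome biogenesis had 12 of 20 genes lower in the 4 lines and a median of -0.47, with FBL, which methylates ribosomal RNA, at a log2 change of -0.80 (adjusted p 0.163). Ribosomal protein genes differed between lines, with medians of -1.42, -0.63, -0.02 and 0.15 over 18 genes. NRF2 targets did so too, with medians of -1.21, 0.36, 0.22 and -0.52, as did the 13 mitochondrially encoded genes, with medians of -0.13, -0.01, 1.56 and 0.93. Neither NRF2 nor ATF4 targets had a gene at an unadjusted p under 0.05. Of 20 clustered histone genes 7 were higher and 4 lower in the 4 lines, and H2AC6 had a log2 change of 1.25 (adjusted p 0.163). Their summed level was lower at day 7 in each line (1954 to 4922 TPM attached, 1895 to 3375 TPM at day 7). H4C3, with the highest mean level of the list, averaged 2899 TPM attached and 1520 TPM at day 7. It was lower in each line and was not called.

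Among immediate early and growth signal genes, FOS stood at 2.10, 14.8, 6.05 and 9.51 TPM attached and at 7.30, 32.0, 16.5 and 18.8 TPM at day 7, at least 2-fold higher in the 4 lines (log2 change 1.24, adjusted p 0.0850). MYC went from 112, 243, 260 and 20.9 TPM to 39.9, 143, 170 and 8.88 TPM (log2 change -1.07, adjusted p 0.160). SPRY1, a feedback inhibitor of ERK signaling, went from 1.77, 22.7, 24.3 and 55.0 TPM to 10.7, 55.9, 40.1 and 122 TPM (adjusted p 0.0856), and ETV4, an ERK-dependent transcription factor, averaged 12.7 and 29.3 TPM (adjusted p 0.132). Of 14 ERK output genes 3 were higher and 0 lower in the 4 lines. In the S100 family of calcium binders, S100A10 went from 6380, 2115, 5037 and 2742 TPM to 1468, 1609, 965 and 845 TPM without overlap (log2 change -1.64, adjusted p 0.126). S100A2 averaged 193 and 42.3 TPM (log2 change -2.38, adjusted p 0.116).

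Among 2093 long non-coding RNAs and 902 pseudogenes tested, edgeR called 0, while DESeq2 called 8 of the 10 non-coding genes that the naming rule takes. At least 2-fold in the 4 lines, 10 long non-coding RNAs were higher (0.478%) and 4 lower (0.191%). MANCR, a long non-coding RNA, stood at 18, 1.27, 6.17 and 5.22 TPM attached and at 2.58, 0.283, 2.66 and 0.690 TPM at day 7 (log2 change -2.31, adjusted p 0.133). LINC00342 went from 1.22, 1.05, 0.340 and 3.13 TPM to 3.40, 8.11, 1.17 and 14.6 TPM (log2 change 2.0, adjusted p 0.134). KDM7A-DT averaged 1.31 and 4.70 TPM. BCYRN1, a transcript made of a repeated sequence, averaged 85.6 and 22.3 TPM without overlap, but reads of other copies of the repeat cannot be told from its own. AC089983.1 lies on the strand opposite to TXNRD1, and HHIP-AS1 opposite to HHIP, so their levels are uncertain without knowing whether strand was used.

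In 48 protein-coding genes with at least 10 TPM in a library, at least 1 line was 4-fold higher and at least 1 line 4-fold lower at day 7. NCI-H2009 was at least 4-fold higher in 33 of the 48 and 4-fold lower in 0. NCI-H2228 was 4-fold higher in 4 and 4-fold lower in 21. HCC4006 was 4-fold higher in 10 and lower in 16, and LC-2/ad 4-fold higher in 13 and lower in 14. These genes were chosen for that difference, which is not tested, since a line has 1 library per state. HOPX, a homeodomain protein of alveolar type 1 cells, stood at 0.501, 4.61, 8.54 and 43.4 TPM attached and at 83.9, 10.3, 1.32 and 81.9 TPM at day 7. KDR, a VEGF receptor, went from 0, 0.098, 1.48 and 1.12 TPM to 11.8, 3.49, 0.187 and 7.27 TPM. CYP1A1, a target of the aryl hydrocarbon receptor, went from 5.47, 15.5, 0.213 and 89.1 TPM to 93.1, 840, 0.026 and 40.9 TPM, higher in NCI-H2009 and LC-2/ad and lower in the other lines. APOBEC3A, a cytidine deaminase, was at 0.127, 0.255, 0.838 and 0.176 TPM attached and at 50.3, 1.10, 0.033 and 0.163 TPM at day 7, high in detached NCI-H2009 only. SFTPA1, a surfactant protein, reached 20.3 TPM in detached HCC4006 and was no higher than 0.927 TPM elsewhere. The secreted protein PAEP was lower in LC-2/ad (1.05 and 0.127 TPM) and higher in the other lines.

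**Figure D5:**
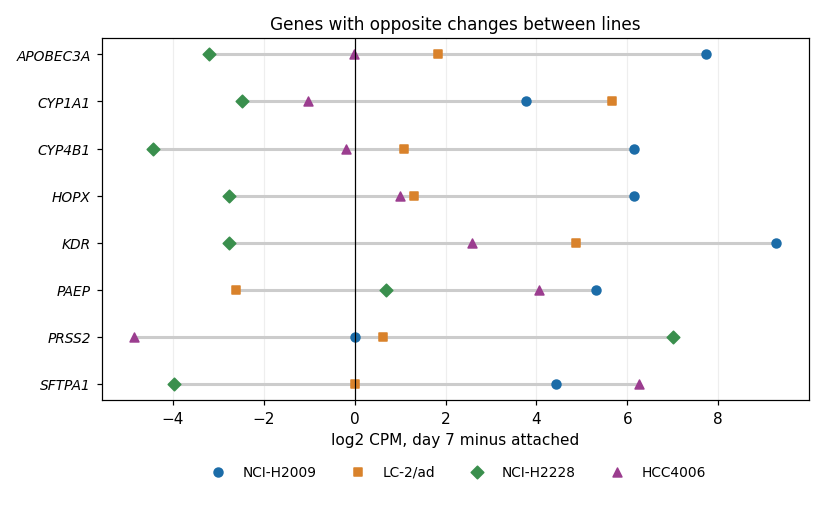
Change of log2 CPM (day 7 minus attached) in each cell line for 8 protein-coding genes chosen because at least 1 line is 4-fold higher and at least 1 line 4-fold lower. NCI-H2228 (green diamonds) is below 0 for 6 of the 8, and NCI-H2009 (blue circles) is above 0 for 7.

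FTH1, the ferritin heavy chain, stood at 13034, 11073, 19692 and 6806 TPM attached and at 15911, 26756, 44912 and 5198 TPM at day 7. It was higher in LC-2/ad and NCI-H2228, about equal on the log2 CPM scale in NCI-H2009 and lower in HCC4006 (adjusted p 0.524). ACTB, beta-actin, averaged 14341 ± 4035 TPM (SD, n = 4) attached and 10960 ± 2715 TPM at day 7. Its log2 change of -0.42 did not pass (edgeR adjusted p 0.536). B2M, the light chain of MHC class I, went from 1595, 4538, 6799 and 5826 TPM to 3144, 6707, 7949 and 10553 TPM, higher in each line (log2 change 0.61, adjusted p 0.198). PPIA, cyclophilin A, averaged 9479 and 6286 TPM (log2 change -0.69, adjusted p 0.245).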

How the data were processed

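RNA of 4 lung adenocarcinoma lines was sequenced after library preparation by SMART-Seq v4 PLUS, as the labels' protocols say. The genome build is GRCh38, per the submitters' processing notes. Aligner, counting tool, annotation release and strand setting: not given in the sources used here. The authors deposited 1 table with TPM, which adds up to 1000000 in each library, and estimated counts, which are not normalized (31.5% of values above 0 are not whole, beyond a tolerance of 0.005), per the file headers. A count of 1 stood for 0.0261 to 0.0300 CPM, and intervals of counting error do not cover PCR copies. Columns were matched to samples by the names in the labels, with 0 columns of samples left unmapped.

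After rounding, edgeR 4.0.16 (R 4.3.3) was run on the estimated counts, with filterByExpr by state and TMM scaling. The robust quasi-likelihood fit took terms for cell line and state and all 12 libraries, so the 4 libraries detached for 1 day enter the spread only, leaving 6 residual degrees of freedom and a biological coefficient of variation of 38.7%. The SE restates the F statistic. DESeq2 1.42.0 and limma 3.58.1 were alternatives. Libraries were paired because both came from 1 cell line, and deviations from the state mean correlated at 0.75 to 0.80 within a line and at -0.38 to -0.12 between lines. Subtracting the mean of the 4 lines pushes the values between lines below 0, so their sign says nothing about the pairing. With 4 pairs an exact sign-flip test of a single gene cannot go below p = 0.125, so none was used.

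Members and the 65 gene lists (936 of 1002 symbols tested) were chosen with earlier results of these data known, and list medians carry no test. Named genes are all called; in each direction the 12 protein-coding genes with the smallest p and the 12 with the largest smallest change over lines, same sign in 4 lines and a mean of at least 5 TPM; 5 non-coding genes a direction (2 TPM); 8 line-dependent genes; the members of each list with the smallest p; and the 5 highest levels a state. Not all of them are described. The fit was also run on simulated counts in which a changed gene moved alike in every line. That run cannot show how the fit does where lines respond differently. Per-line changes use log2 CPM with a prior count of 2.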

Additional observations from a re-analysis of the deposited data

Results flagged for a closer look

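In groups of 4 values, a value was picked out where its gap to the nearest other took more of the whole range than the critical value of Dixon's test. Chance does this in about 1 of 20 groups, and 208 groups were examined. 12 stood out, 10 of them in NCI-H2009. Each is 1 pair of libraries.

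Among genes lower at day 7, the log2 CPM change of SERPINB5 was smallest in LC-2/ad, at -1.07, against -2.13 to -1.98 in the other lines. TGFB2 was lower by far in NCI-H2009, at -4.63, against -1.90 to -1.46. CAV2 was at -2.68 in NCI-H2009 against -1.24 to -1.02.

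Among genes higher at day 7, NCI-H2009 stood apart for CLDN3 (5.73 against 1.22 to 1.86), ELF3 (3.51 against 1.04 to 1.35), MUC3A (3.0 against 1.38 to 1.49) and KDM7A-DT (5.24 against 1.06 to 1.54). The MUC3A value rests on levels near 0, with 0 TPM attached and 0.124 TPM at day 7 in NCI-H2009, against 12.1 and 33.8 TPM in HCC4006. HHIP-AS1 was at 2.70 in HCC4006 against 1.00 to 1.10.

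Among gene lists, the medians of NCI-H2009 stood apart for glycolysis (-0.99 against -0.30 to -0.22), ATF4 targets (-0.65 against 0.00 to 0.13), extracellular matrix (-0.45 against -0.65 to -0.63) and the 7 leukocyte markers tested (2.70 against 0.00 to 0.08).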

How the results depend on the processing

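The count of called genes was 18 and moved with most settings. It was 1 with only the 8 libraries, 0 with no replicate block (cell line left out of the model), 6 with DESeq2's size factors in edgeR, 1162 with DESeq2, 35 with limma-trend, 114 with no filter on low counts and 28 with a mean TPM of at least 1. Without the cell line, 518 genes had an unadjusted p under 0.05. Leaving out a line gave 0 to 1 calls, leaving out an attached library 0 to 3 and leaving out a day 7 library 0 to 8, with 1772 to 3232 genes at an unadjusted p under 0.05 in edgeR. The 18 genes were among the calls of DESeq2, limma and both filters. With size factors 6 of the 18 remained, and the median log2 change of all genes moved by 0.00288. The share of higher calls was 1 of 18, 1 of 6 with size factors, 600 of 1162 with DESeq2, 9 of 35 with limma, 30 of 114 without the filter, 5 of 28 with the TPM filter and 6 of 8 without detached NCI-H2228. At most 2 of the 18 were called when a line or library was left out. The genes at least 2-fold higher and lower in the 4 lines numbered 88 and 86. On log2(TPM + 1) they were 13 and 34, and over any 3 lines they ranged from 139 to 310 and from 143 to 219, since fewer lines have to meet the rule. The other settings kept them between 66 and 113 and between 76 and 94. No log2 change of a gene given with an adjusted p changed sign under these settings. Of 65 list medians 21 changed sign under at least 1 setting. In 3 of these the median was beyond 0.5 in size, and they changed sign without the block: NF-kappaB targets went from 0.98 to -0.10, basal markers from -0.68 to 0.16 and AHR targets from 1.14 to -0.01. The extracellular matrix median ran from -1.04 to -0.34. The cause of the moves was not tested. Without replicates inside a line, no value of 1 line has an error.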

Other observations

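Values outside the comparisons above are given without a test. Among the leukocyte markers tested, CD79A, a B cell receptor chain, averaged 2.83 TPM attached and 21 TPM at day 7, nearly all of it in NCI-H2009, and CD14 averaged 6.63 and 27.9 TPM (adjusted p 0.162). Xenobiotic metabolism and AHR target genes had medians of 1.11, 0.51, -0.53 and -0.16 in the order of lines used above. Cystatins had medians of 0.52, 1.00, -0.15 and 1.15 over 7 genes. Of 18 genes of the unfolded protein response 10 were higher and 0 lower in the 4 lines, with a median log2 change of 0.24. Of 20 proteasome genes 11 were lower and 0 higher, with a median of -0.33. In the pathway annotation of the deposited table, Spliceosome had 59 of 131 genes lower and 6 higher in the 4 lines, with a median of -0.27.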
